A study of Mus musculus with 19 samples.

Results

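Recombination hotspots near the centromeric end of the autosomes were described in male hybrid mice that differ in the Prdm9 allele they carry. They are the hotspots centered below 13 Mb on chromosomes 1 to 16 and on chromosome 18, in mm10 coordinates. Each of the 5 genotypes had its own table of hotspots. The centromeric end held 1262 of 19247 hotspots in B6/SPRT, 1118 of 16398 in Hum/SPRT and 717 of 10088 in CAST/SPRT. It held 1128 of 18069 in STUS/B6 and 721 of 10525 in STUS/Hum, which makes 4946 of 74327 rows over the 5 tables. The remaining hotspots of the same 17 chromosomes, from 13 Mb on, are called the rest below.

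The B6/SPRT, Hum/SPRT and CAST/SPRT males are B6SPRTF1 hybrids of C57BL/6J (B6) females and SPRET/EiJ (SPRT, Mus spretus) males. All 3 carry the SPRT Prdm9 allele and a B6 autosomal set opposite a SPRT set. Their second Prdm9 allele is the wild-type B6 allele, an engineered allele with the human PRDM9 B zinc fingers (Hum), or an engineered allele with the zinc fingers of Mus musculus castaneus (CAST). STUS/B6 and STUS/Hum males are hybrids of B6 and STUS/Jpia (STUS, Mus musculus musculus) and carry the STUS allele with the B6 or the Hum allele. The SPRT and STUS alleles are called wild-parent alleles, and the B6, Hum and CAST alleles, which were inherited with the B6 chromosomes, are called B6-side alleles. Whole testes of adult males were used, so all germ cell stages and somatic cells contribute to the chromatin. There was 1 DMC1 library per genotype and no second library to set against it. H3K4me3 had 2 ChIP samples in B6/SPRT and CAST/SPRT and 3 in Hum/SPRT (labelled 1, 1b and 2, so that 1b may repeat replicate 1), but its values come as 1 column per genotype. Each table thus describes 1 set of libraries, and the 17 chromosomes of a table served as the units of the tests.

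PRDM9 binds DNA through an array of zinc fingers and trimethylates lysine 4 of histone H3 (H3K4me3) beside its binding site. Some of these sites are then cut, and the resected single strands are loaded with the recombinase DMC1, so DMC1-bound single-stranded DNA marks breaks that are not yet repaired. DMC1 signal at a site therefore depends on how often it is cut and on how long a break lasts, whereas H3K4me3 reads binding. Mouse autosomes are acrocentric: the centromere lies at the end where the reference coordinates begin, and unsequenced satellite repeats precede the first mapped base. In a hybrid, a hotspot can be bound and cut on both homologs or mainly on 1 of them, for example where mutations have eroded the binding motif of an old allele in the lineage that carried it. A hotspot with 25 to 75% of its DMC1 reads from the B6 chromosome is called matched here, and any other is called one-sided.

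The sequence of the hotspots themselves is not shown. Promoter sequence beside a hotspot is shown for 3 sites of different alleles that were called with the same allele in more than 1 genotype and lay within 500 bp of a RefSeq promoter window. Each line gives the 250 bases before an annotated start site on the gene's strand, from the B6 reference (RefSeq, GRCm38.p6). Capitals mark matches, on either strand, to CCTCCCT, a core of the motif known for human hotspots, which was held by 13.3% of 32851 promoter windows (250 bases before to 50 after the start site).
Frmd4a, chr2:4017433-4017682, plus strand: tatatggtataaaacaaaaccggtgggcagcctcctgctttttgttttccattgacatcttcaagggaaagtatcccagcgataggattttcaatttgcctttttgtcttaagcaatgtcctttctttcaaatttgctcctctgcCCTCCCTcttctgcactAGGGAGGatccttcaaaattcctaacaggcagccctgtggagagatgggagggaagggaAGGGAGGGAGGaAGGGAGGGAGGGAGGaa
Gm31639, chr9:7255244-7255493, plus strand: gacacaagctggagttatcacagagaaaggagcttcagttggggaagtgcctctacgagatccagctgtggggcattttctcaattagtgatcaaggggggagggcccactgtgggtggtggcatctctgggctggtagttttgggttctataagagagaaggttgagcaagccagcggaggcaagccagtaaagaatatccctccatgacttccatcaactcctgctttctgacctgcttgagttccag
Ddi1, chr9:6266548-6266797, minus strand: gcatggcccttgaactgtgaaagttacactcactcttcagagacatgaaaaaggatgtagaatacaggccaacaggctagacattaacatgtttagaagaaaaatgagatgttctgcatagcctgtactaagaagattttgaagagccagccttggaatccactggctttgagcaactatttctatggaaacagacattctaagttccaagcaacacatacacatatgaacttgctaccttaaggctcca
The stretch before Frmd4a, a scaffold protein gene, holds CCTCCCT on both strands. Its hotspot was assigned to the Hum allele in both Hum genotypes, with centers at -490 bp from the start site in Hum/SPRT and at -321 bp in STUS/Hum. Its DMC1 signal was 181.2 with 49.6% of reads from B6 in Hum/SPRT, and 113.7 with 37.9% in STUS/Hum, so it was matched opposite either homolog. The site at Gm31639, a lncRNA gene, was assigned to the SPRT allele in all 3 genotypes that carry it, with DMC1 signals of 423.9, 292.8 and 94.2 in B6/SPRT, Hum/SPRT and CAST/SPRT. The B6 homolog gave 96.8 to 98.6% of the DMC1 reads there. Ddi1, an aspartyl protease gene, had a STUS hotspot with 93.0% of reads from B6 in STUS/B6 and 87.9% in STUS/Hum. The 7 letters were not in the printed stretches of Gm31639 and Ddi1. The centers of the Frmd4a and Gm31639 hotspots lie outside the printed stretches. That of the Ddi1 hotspot lies inside in STUS/B6 (6266793) and outside in STUS/Hum (6266809). A further hotspot was assigned to the B6 allele near Gm40260 on chromosome 5, at the same center in both genotypes with that allele. The B6 chromosome gave 2.0% of its reads in B6/SPRT and 27.8% in STUS/B6, where it counted as matched.

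No difference in hotspot density between the centromeric end and the rest was detected in any genotype once chromosomes were compared. Counted from 3 Mb, the 170 Mb of centromeric end held 7.42 hotspots per Mb in B6/SPRT (95% exact Poisson interval 7.02 to 7.84), against 7.70 in the rest. The corresponding densities were 6.58 against 6.49 in Hum/SPRT, 4.22 against 3.97 in CAST/SPRT, 6.64 against 7.22 in STUS/B6, and 4.24 against 4.15 in STUS/Hum. In STUS/B6 the Poisson intervals of end (6.25 to 7.03) and rest (7.10 to 7.34) were apart. Paired by chromosome, the mean differences ran from -0.657 per Mb in STUS/B6 to 0.235 in CAST/SPRT, with SDs of 1.15 to 2.31 over 17 chromosomes. None passed the two-sided exact Wilcoxon signed-rank test, with adjusted p of 0.323 to 0.750 (Benjamini-Hochberg over all 39 tests of this kind). The last 10 Mb of the same chromosomes held 9.82, 8.42, 4.81, 7.98 and 4.77 hotspots per Mb in the same order, above the centromeric end in each of the 5 tables.

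Most chromosomes had a dense or a sparse end in all genotypes alike. The centromeric ends of chromosomes 1, 3, 5, 7, 9 and 14 were below the rest of their chromosome in all 5 genotypes, and those of chromosomes 2, 8, 10, 11, 12, 16 and 18 were above it in all 5. Chromosomes 4, 6, 13 and 15 were above it in some genotypes and below it in others. Relative to the rest, the ends of chromosomes 7, 9 and 14 were the sparsest, at 0.4996 to 0.687, 0.402 to 0.616 and 0.521 to 0.617 of its density. Chromosome 9 was the lowest in B6/SPRT, Hum/SPRT and CAST/SPRT, and chromosome 7 in STUS/B6 and STUS/Hum. The end of chromosome 9 held 41 hotspots in B6/SPRT, 31 in Hum/SPRT, 19 in CAST/SPRT, 43 in STUS/B6 and 28 in STUS/Hum. In absolute density the lowest end was that of chromosome 14 in B6/SPRT with 4.0 per Mb, chromosome 9 in Hum/SPRT with 3.1 and CAST/SPRT with 1.9, and chromosome 7 in STUS/B6 with 3.5 and STUS/Hum with 2.2. The highest was that of chromosome 16 in B6/SPRT with 10.3 per Mb and in STUS/B6 with 10.2, chromosome 12 in Hum/SPRT with 8.6, where chromosome 10 was level with it, chromosome 18 in CAST/SPRT with 6.2 and chromosome 11 in STUS/Hum with 7.0. Over the 17 chromosomes, the densities of 2 genotypes correlated with Pearson's r of 0.788 to 0.962 and Spearman's rho of 0.699 to 0.953. The pairs share chromosomes, a B6 homolog and, for most pairs, a Prdm9 allele.

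**Figure D1:**
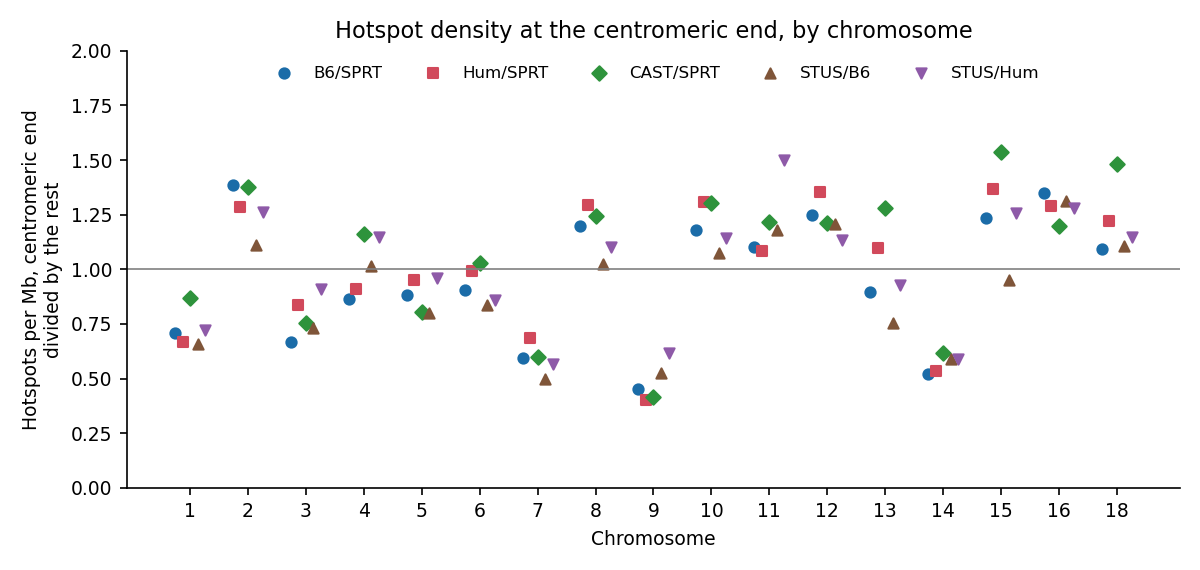
Hotspots per Mb at the centromeric end divided by hotspots per Mb in the rest, for each of 17 chromosomes (x axis) and 5 genotypes (symbols). Points above the line at 1 mark ends denser than their rest. The 5 genotypes are on the same side of the line on 13 of 17 chromosomes, with the widest range on chromosome 15, from 0.949 to 1.535. Chromosomes 7, 9 and 14 have no point above 0.687.

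Over all hotspots together, DMC1 signal was higher at the centromeric end in B6/SPRT, while H3K4me3 enrichment was lower in all 3 genotypes where it was measured. The median DMC1 signal (the value of the authors' caller, whose scaling to depth is not stated) was 62.8 at the centromeric end and 53.8 in the rest of B6/SPRT. Its log2 value was higher by 0.25 ± 0.34 (SD over 17 chromosomes), with 13 of 17 chromosomes higher (exact signed-rank test, adjusted p = 0.0331). That call was lost when any 1 of 10 chromosomes (1, 4, 5, 6, 8, 10, 12, 13, 15 or 18) was left out, with differences of 0.22 to 0.29 over all chromosomes left out in turn. It was also lost with a bound of 8 Mb (0.13) and among hotspots at or above the median DMC1 signal (0.14), where Hum/SPRT (0.19) and CAST/SPRT (0.24) passed instead. By allele, the B6/SPRT difference was 0.41 for B6 hotspots (12 of 16 chromosomes higher) and 0.05 for SPRT hotspots (9 of 17). For hotspots with no assigned allele it was -0.11 (6 of 17). These differences by allele were not tested. From DMC1 signal alone, more frequent cutting and breaks that last longer cannot be told apart. The medians of the other genotypes were 47.7 against 42.5 in Hum/SPRT, 28.6 against 26.1 in CAST/SPRT, 48.3 against 46.5 in STUS/B6, and 37.8 against 33.6 in STUS/Hum. Their log2 differences of 0.16, 0.10, 0.05 and 0.07 did not pass the exact test, with adjusted p of 0.226 to 0.611. Summed over hotspots, DMC1 signal per Mb was 872.5 at the end and 745.8 in the rest of B6/SPRT, 523.0 against 442.0 in Hum/SPRT, 172.3 against 139.6 in CAST/SPRT, 774.7 against 742.5 in STUS/B6, and 246.1 against 216.7 in STUS/Hum. These sums were not tested.

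H3K4me3 moved the other way. Median enrichment over input was 5.25 at the centromeric end and 6.35 in the rest of B6/SPRT, 3.82 and 5.13 in Hum/SPRT, and 22.2 and 28.8 in CAST/SPRT. By chromosome the log2 value was lower by a mean difference of -0.29 ± 0.28 in B6/SPRT (15 of 17 chromosomes lower, exact signed-rank test, adjusted p = 0.00188). The mean difference was -0.45 ± 0.40 in Hum/SPRT (15 of 17 lower, exact test, adjusted p = 0.00119) and -0.40 ± 0.33 in CAST/SPRT (16 of 17 lower, exact test, adjusted p = 0.00119). The input coverage behind these values was alike, with medians of 18 reads at the end and 19 in the rest of B6/SPRT, 26 and 26 in Hum/SPRT, and 27 and 28 in CAST/SPRT. The ChIP coverage was 109 against 133 reads in B6/SPRT, 217.5 against 289 in Hum/SPRT and 122 against 165 in CAST/SPRT.

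Relative to H3K4me3, DMC1 signal was therefore higher at the centromeric end in all 3 genotypes. The log2 ratio of DMC1 signal to enrichment had a median of 3.66 at the end and 3.19 in the rest of B6/SPRT, 3.83 and 3.28 in Hum/SPRT, and 0.52 and 0.01 in CAST/SPRT. The levels of different tables are not on a common scale, so only differences within a table are compared. Over 17 chromosomes, the B6/SPRT table had a mean difference of 0.49 ± 0.31, that of Hum/SPRT 0.56 ± 0.35 and that of CAST/SPRT 0.56 ± 0.36. In each genotype 16 of 17 chromosomes were higher at the end (exact signed-rank test, adjusted p = 0.000595 in each). The exception was chromosome 16 every time, with differences of -0.12, -0.20 and -0.17. Chromosome 9, whose end was sparse in hotspots, had differences of 0.84, 1.18 and 1.19. The difference between end and rest in density and that in the ratio were only loosely related over chromosomes, with Pearson's r of -0.317, -0.478 and -0.384 and Spearman's rho of -0.294, -0.417 and -0.375 in B6/SPRT, Hum/SPRT and CAST/SPRT. Without the 2 chromosomes of most extreme density r was -0.200, -0.472 and -0.115. No DMC1-to-H3K4me3 ratio can be given for STUS/B6 and STUS/Hum, whose H3K4me3 was not analysed here.

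**Figure D2:**
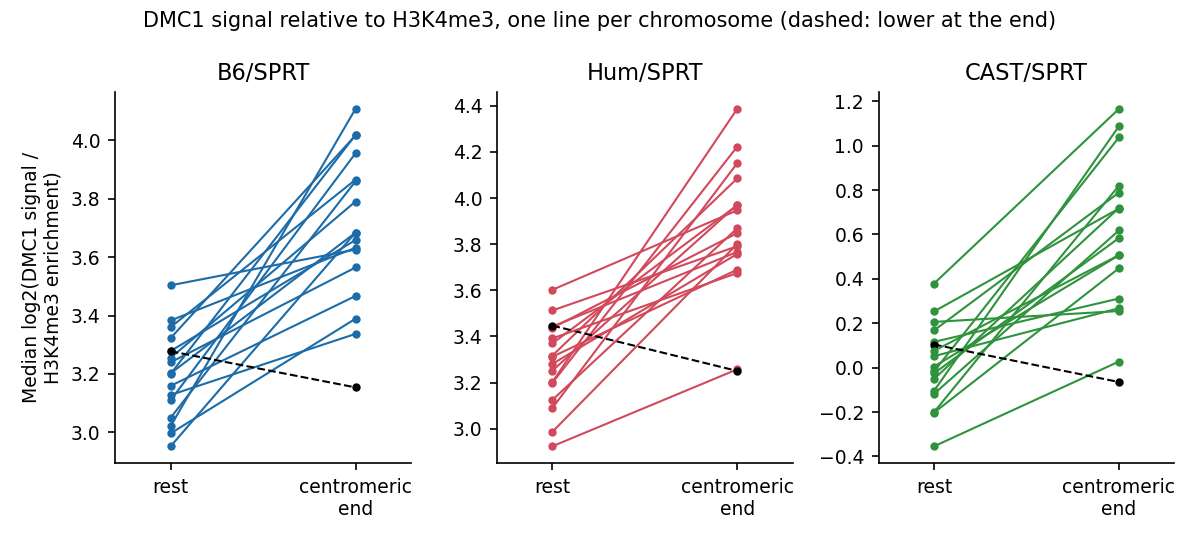
Median log2 ratio of DMC1 signal to H3K4me3 enrichment in the rest (left of each panel) and at the centromeric end (right) of the same chromosome, 1 line per chromosome and 1 panel per genotype. The y axes differ between panels. 16 of 17 lines rise in each panel, and the dashed line that falls is chromosome 16.

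The higher ratio was found for hotspots of each PRDM9 allele. For B6 hotspots of B6/SPRT the median log2 ratio was 3.61 at the end and 2.94 in the rest, and all 16 chromosomes with enough hotspots were higher at the end. For SPRT hotspots of the same mice it was 4.02 and 3.73, with 14 of 17 chromosomes higher. Hum hotspots of Hum/SPRT had 3.31 and 2.68 (15 of 16 chromosomes higher), and SPRT hotspots there had 4.03 and 3.58 (16 of 17). CAST hotspots of CAST/SPRT had 0.31 and -0.39 (17 of 17), and SPRT hotspots there had 0.61 and 0.22 (15 of 17). The mean difference was thus 0.90 for B6, 0.59 for Hum and 0.68 for CAST hotspots, and 0.25, 0.45 and 0.44 for SPRT hotspots of the same 3 genotypes. Whether B6-side and SPRT hotspots differ from each other in this was not tested.

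The ratio showed no steady trend within the centromeric end and no drop at 13 Mb. In windows of 10 Mb, it lay above the median of its table by 0.43 from 3 to 13 Mb and by 0.39 from 13 to 23 Mb in B6/SPRT. These values were 0.51 and 0.51 in Hum/SPRT and 0.47 and 0.46 in CAST/SPRT. From 23 to 33 Mb they were down to 0.11, 0.10 and 0.08, and from 73 to 83 Mb they were -0.18, -0.13 and -0.10. The high ratios thus ran on to the window next to the centromeric end. In windows of 2 Mb inside the end, the median log2 ratio of B6/SPRT was 3.65, 3.51, 3.72, 3.71 and 3.72 from the start outward.

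**Figure D3:**
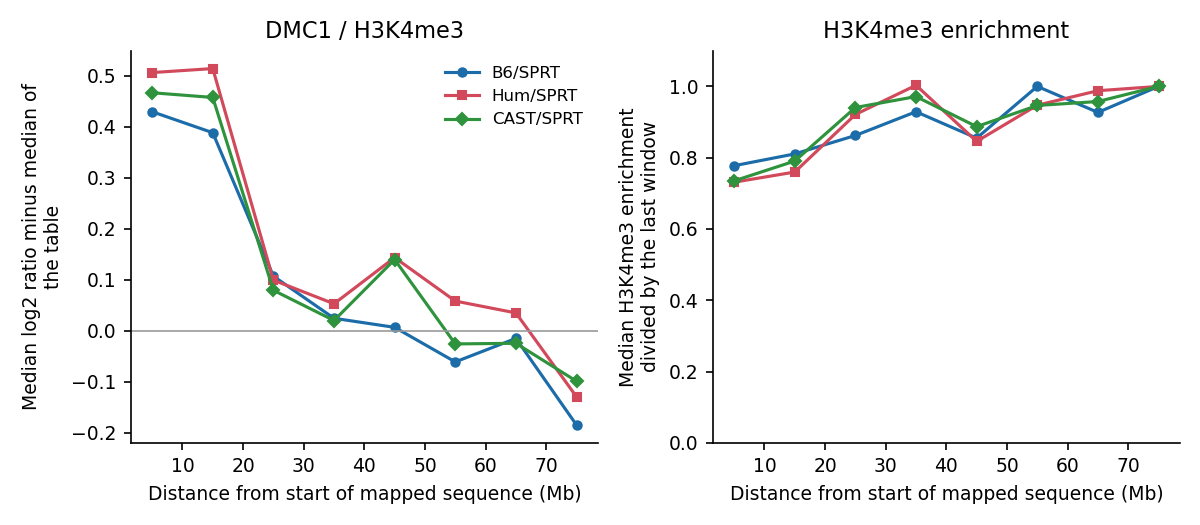
Values in windows of 10 Mb against the distance of the window's middle from 3 Mb, for 3 genotypes over 17 chromosomes. Left, the median log2 ratio of DMC1 signal to H3K4me3 enrichment minus the median of the table; right, median H3K4me3 enrichment divided by that of the last window. The ratio is high in the first 2 windows, at 0.39 to 0.51, and at 0.08 to 0.11 in the next.

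The shares of hotspots that each PRDM9 allele took were not detectably different between the centromeric end and the rest. Among hotspots with an assigned allele, SPRT hotspots were 69.7% at the end of B6/SPRT (95% Wilson interval 66.7 to 72.5) and 69.3% in the rest. The SPRT share was 69.6% and 67.6% in Hum/SPRT, and 58.7% and 59.8% in CAST/SPRT. The STUS share was 57.4% and 59.5% in STUS/B6, and 48.1% and 44.0% in STUS/Hum. Paired by chromosome, these differences ran from -2.07 to 4.49 points and none passed the exact test (adjusted p 0.158 to 0.890). Hotspots with no assigned allele were 22.3% of those at the end of B6/SPRT and 27.8% of the rest. By chromosome that share was lower at the end by a mean difference of -5.27 ± 6.23 points, with 14 of 17 chromosomes lower (exact test, adjusted p = 0.0217). Among hotspots at or above the median DMC1 signal, the difference was 0.585 points and did not pass. In the other genotypes the unassigned share was higher at the end by 1.11 to 2.32 points, and none of these passed the exact test (adjusted p 0.258 to 0.839).

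Hotspots at the centromeric end were less often matched than those of the rest in every pair of allele and genotype, and 3 of these 10 differences passed the test. The 10 differences are not independent, as genotypes share alleles and sites. At the end, 663 SPRT hotspots were common to B6/SPRT and Hum/SPRT, so the SPRT differences of these genotypes rest largely on the same sites. B6 hotspots of B6/SPRT had the lowest matched share. Of 188 with a B6 fraction at the end, 30 were matched, or 15.96% (Wilson interval 11.4 to 21.9), against 25.96% of 2169 in the rest. By chromosome the mean difference was -10.2 ± 9.70 points, with 13 of 16 chromosomes lower (exact signed-rank test, adjusted p = 0.00935). The median B6 hotspot had 7.05% of its DMC1 reads from the B6 chromosome at the end and 13.8% in the rest. SPRT hotspots of the same mice were matched at 24.2% and 30.2%, with a mean difference of -7.73 ± 10.2 points and 15 of 17 chromosomes lower (exact test, adjusted p = 0.0201). SPRT hotspots of Hum/SPRT were matched at 25.7% and 31.5%, with a mean difference of -7.22 ± 8.51 points and 12 of 17 chromosomes lower (exact test, adjusted p = 0.0126). With the end taken below 8 Mb, where fewer hotspots remain, these 3 differences were -8.15, -8.74 and -7.40 points and none passed. The B6 difference also did not pass with matched set at 40 to 60% (-5.26 points) or with a bound of 18 Mb (-9.24). Nor did it pass at equal DMC1 signal, an alternative chosen after seeing the data. At the end, matched B6 hotspots of B6/SPRT had a median DMC1 signal of 17.6, against 70.0 for one-sided ones. Weighted by signal, the B6 difference of B6/SPRT passed (-11.7 points, exact test, adjusted p = 0.000446), with 0 of 16 chromosomes higher. The SPRT differences did not pass when weighted (-5.93 in B6/SPRT and -3.75 in Hum/SPRT). For SPRT hotspots the lower share ran on past the end, at 26.7% in B6/SPRT and 26.2% in Hum/SPRT from 13 to 23 Mb. B6 hotspots of B6/SPRT were matched at 23.5% there.

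The 7 other differences were also negative but did not pass. Hum hotspots were matched at 38.2% at the end and 44.2% in the rest of Hum/SPRT (mean difference -5.54 points, exact test, adjusted p = 0.180). CAST hotspots were matched at 48.1% and 55.1% (-7.55 points over 15 chromosomes, exact test, adjusted p = 0.0831), a difference that passed without chromosome 1 (-9.39 points) or chromosome 14 (-8.59 points). B6 hotspots of STUS/B6 were at 32.3% and 38.6% and Hum hotspots of STUS/Hum at 54.4% and 64.8%, with mean differences of -5.93 and -9.11 points (exact test, adjusted p = 0.158 and 0.166). The wild-parent alleles SPRT in CAST/SPRT, STUS in STUS/B6 and STUS in STUS/Hum had mean differences of -3.70, -3.10 and -1.98 points (exact test, adjusted p = 0.410, 0.258 and 0.365). The spread between chromosomes, 5.88 to 17.4 points for these 7, was of the size of the differences or larger. The same held for the differences that passed, with SDs of 8.51 to 10.2 points. The number of DMC1 reads behind each fraction is unknown, and 36.1% of B6 hotspots at the end of B6/SPRT had no fraction, against 38.7% in the rest.

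**Figure D4:**
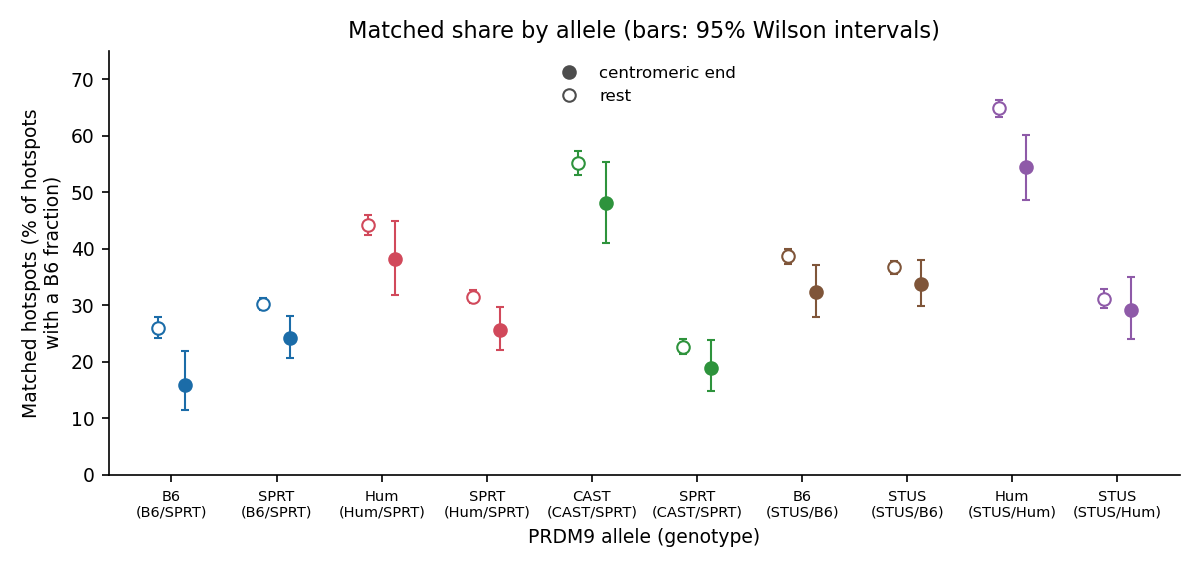
Share of matched hotspots (25 to 75% of DMC1 reads from the B6 chromosome) for each PRDM9 allele and genotype, at the centromeric end (filled) and in the rest (open), with 95% Wilson intervals that cover counting error within a library. All 10 filled points lie below their open neighbours, from 15.96 against 25.96% for B6 hotspots of B6/SPRT to 29.2 against 31.1% for STUS hotspots of STUS/Hum. The points are not independent, as genotypes share alleles and sites.

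The genotypes kept their order at the centromeric end. B6-side hotspots were matched at 15.96% in B6/SPRT, at 38.2% with the Hum allele (Wilson interval 31.8 to 44.9) and at 48.1% with the CAST allele (41.0 to 55.3), so the interval of B6/SPRT was apart from the others and those of Hum/SPRT and CAST/SPRT overlapped. Hum/SPRT exceeded B6/SPRT by 22.2 points at the end and by 18.2 points in the rest, and was higher on 15 of 15 chromosomes with enough hotspots at the end. CAST/SPRT exceeded B6/SPRT by 32.2 points at the end and 29.2 in the rest, also on 15 of 15 chromosomes. CAST/SPRT exceeded Hum/SPRT by 9.94 points, on 8 of 14 chromosomes. STUS/Hum exceeded STUS/B6 by 22.1 points at the end and 26.2 in the rest, on 15 of 17. These differences each rest on 1 DMC1 library a genotype and have no replicate check.

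By H3K4me3, the share of matched B6-side hotspots did not differ detectably between end and rest. Over all hotspots with an H3K4me3 fraction it was 57.8% and 60.8% for B6 hotspots of B6/SPRT, 65.2% and 66.8% for Hum hotspots, and 65.0% and 70.7% for CAST hotspots. The mean differences of -3.38, -1.29 and -4.56 points had SDs of 14.9, 9.64 and 12.2 points over chromosomes and did not pass the exact test (adjusted p 0.258 to 0.645). Over only the hotspots that also had a DMC1 fraction, the H3K4me3 matched share was 48.4% and 54.4% for B6, 58.9% and 60.8% for Hum, and 63.2% and 67.5% for CAST hotspots, above the DMC1 matched share of the same alleles. For SPRT hotspots on that basis it was 37.0% and 43.6% in B6/SPRT, 40.3% and 42.8% in Hum/SPRT, and 25.95% and 29.2% in CAST/SPRT. These shares were not tested. The H3K4me3 fractions rested on medians of 143.5 SNP-carrying reads per B6 hotspot, 342 per Hum hotspot and 222.5 per CAST hotspot at the end. Of the B6 hotspots at the end that were matched by H3K4me3 and had a DMC1 fraction, 30 of 91 were also matched by DMC1, or 33.0% (Wilson interval 24.2 to 43.1), against 46.4% in the rest (43.6 to 49.2). This share was 61.5% at the end and 70.7% in the rest for Hum hotspots, and 74.4% and 80.0% for CAST hotspots. For SPRT hotspots it was 62.4% and 68.0% in B6/SPRT, 58.9% and 71.2% in Hum/SPRT, and 70.7% and 73.9% in CAST/SPRT. All 6 values were lower at the end, and the intervals of end and rest were apart for B6 hotspots of B6/SPRT and for SPRT hotspots of Hum/SPRT. No test by chromosome was made of this share, and the SPRT values rest in part on sites that the genotypes share. Within the end, the B6 fractions of DMC1 and of H3K4me3 were correlated over hotspots, with Spearman's rho of 0.828 for B6 (188 hotspots), 0.912 for Hum (207) and 0.897 for CAST (185). Both fractions depend on the same SNPs.

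**Figure D5:**
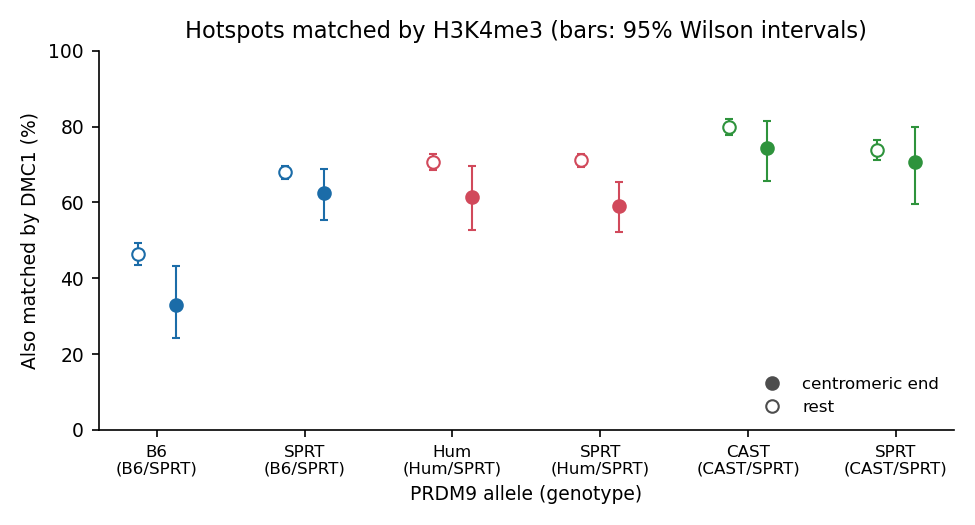
Of the hotspots matched by H3K4me3, the percentage also matched by DMC1, for 2 PRDM9 alleles in each of 3 genotypes, at the centromeric end (filled) and in the rest (open), with 95% Wilson intervals. The 6 filled points are lower than the open ones, and the lowest is that of B6 hotspots at the end of B6/SPRT, 33.0%.

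The strongest hotspots of the end are given site by site. They were picked by DMC1 signal, which was higher at one-sided than at matched B6 hotspots of B6/SPRT. They are examples and do not test the shares above. In B6/SPRT the strongest B6 hotspot lay within Tasor2 on chromosome 13 at 3599921, with a DMC1 signal of 633.9 and 1.06% of DMC1 reads from B6, while 16.2% of its H3K4me3 reads came from B6. The strongest SPRT hotspot there lay within the kinase-like gene Pxk on chromosome 14 at 8114208, with a signal of 662.0 and 99.8% of DMC1 reads from B6. The strongest matched B6 hotspot, within Pdzd2 on chromosome 15 at 12582470, had a signal of 186.1 and 25.7% of reads from B6, just inside the limit of matched. In Hum/SPRT and CAST/SPRT, in contrast, the strongest hotspot of the B6-side allele was itself matched. The Hum hotspot 6.04 kb from the pseudogene Gm8910 on chromosome 3, at 11007479, had a signal of 331.7 with 45.3% of DMC1 reads and 50.4% of H3K4me3 reads from B6. The CAST hotspot within the lncRNA gene Gm46832 on chromosome 3, at 9028668, had a signal of 234.1 with 49.8% and 51.5% from B6. The strongest SPRT hotspots of these 2 genotypes, near Gm36031 on chromosome 2 and Gm34630 on chromosome 18, drew 99.9% and 99.7% of their DMC1 reads from B6.

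The STUS genotypes gave a similar picture, except at the strongest STUS hotspot of STUS/Hum. In STUS/B6 the strongest B6 hotspot, on chromosome 15 at 7652535, had a signal of 854.2 with 0.316% of reads from B6, and the strongest STUS hotspot, on the same chromosome at 7748612, had a signal of 1055 with 99.6% from B6. The strongest matched B6 hotspot lay within Atad2b on chromosome 12, with a signal of 237.0 and 52.6% from B6. In STUS/Hum the strongest Hum hotspot was matched: it lay 20.2 kb from Sdcbp, the syntenin gene, on chromosome 4 at 6345506, with a signal of 385.8 and 56.2% from B6. The strongest STUS hotspot there was matched as well, with 35.9% of reads from B6, and lay within Ncoa1, a nuclear receptor coactivator gene, on chromosome 12 at 4422951. The hotspot nearest a chromosome start was on chromosome 18 at 3010649 in B6/SPRT, where it was assigned to SPRT with a signal of 77.1 and 18.8% of reads from B6. Hum/SPRT and CAST/SPRT had a SPRT hotspot within 500 bp of it, with signals of 42.5 and 17.8. In STUS/B6 and STUS/Hum the nearest was on chromosome 9, at 3019125 and 3019114, with signals of 35.6 and 112. It carried the mark KO in place of an allele.

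Most wild-parent hotspots of the shorter list of a pair of genotypes were found in the longer one. Only hotspots assigned to the same allele were compared. The authors assigned alleles by comparing hotspots between mice with different Prdm9 alleles, so part of this sharing may come with the assignment. Of 676 SPRT hotspots at the end of B6/SPRT, 663 had a SPRT hotspot of Hum/SPRT within 500 bp, which is 98.1% of them and 99.0% of the 670 in Hum/SPRT, against 98.8% and 98.7% in the rest. With CAST/SPRT, which had 367 SPRT hotspots there, B6/SPRT shared 361, which is 53.4% of the B6/SPRT list and 98.4% of the CAST/SPRT list, against 54.6% and 98.0% in the rest. STUS/B6 and STUS/Hum shared 256 STUS hotspots, which is 46.4% of 552 (Wilson interval 42.3 to 50.5) and 90.5% of 283, against 39.1% (38.1 to 40.2) and 94.7% in the rest. That difference was not tested by chromosome. The fraction of reads from B6 at shared SPRT hotspots differed by at most 10 points between B6/SPRT and Hum/SPRT in 85.1% of 482 hotspots. B6 hotspots, which face a SPRT homolog in B6/SPRT and a STUS homolog in STUS/B6, shared 227 sites, which is 77.2% of 294 and 55.5% of 409, against 81.0% and 54.2% in the rest. At 66.2% of the 148 of these with both fractions, the B6 fraction differed by at most 10 points. Hum hotspots of Hum/SPRT and STUS/Hum shared 210 sites, which is 71.7% of 293 and 68.8% of 305, against 71.2% and 66.9% in the rest, and 37.0% of 146 were within 10 points.

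A few hotspots carry the mark KO in place of an allele, which the sources used here do not explain. They were 10, 11, 10, 10 and 12 hotspots at the end of B6/SPRT, Hum/SPRT, CAST/SPRT, STUS/B6 and STUS/Hum, or 0.792, 0.984, 1.39, 0.887 and 1.66% of all hotspots there. In the rest they were 0.231, 0.452, 0.363, 0.313 and 0.614%. The Wilson intervals of end and rest were apart in 4 genotypes and met in Hum/SPRT, at 0.550 to 1.75% against 0.352 to 0.580%. These 53 rows fell on 15 sites, each listed in at least 2 genotypes. Not all were weak: a site within Stxbp5 on chromosome 10 had DMC1 signals of 58.9 to 308.1. A site near Mir101c on chromosome 9 ranged from 9.62 to 112. In all 5 tables, 3 of the 1262 hotspots at the end of B6/SPRT were found, or 0.238% (Wilson interval 0.0809 to 0.697), against 0.144% of the rest. All 3 carry the KO mark: near the pseudogene Gm7587 and the vomeronasal receptor gene Vmn2r37 on chromosome 7, and 85.4 kb from Gm23097 on chromosome 9. Their DMC1 signals were low, from 9.62 to 16.9 over the 5 genotypes, and their H3K4me3 enrichment varied. In B6/SPRT, Hum/SPRT and CAST/SPRT the enrichment was 0.977, 1.11 and 2.42 at the Gm7587 site, 0.655, 0.379 and 10.4 at the Vmn2r37 site, and 2.12, 0.215 and 0.978 at the Gm23097 site.

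The share of hotspots inside genes was close at the end and in the rest. Protein-coding genes held 53.0% of the hotspots at the end of B6/SPRT and 53.1% of the rest. The 2 values were 53.3% against 54.7% in Hum/SPRT, 53.0% against 54.2% in CAST/SPRT, 51.5% against 51.8% in STUS/B6, and 52.0% against 54.1% in STUS/Hum. Few hotspots lay within 500 bp of a promoter window: 15 in B6/SPRT, 10 in Hum/SPRT, 2 in CAST/SPRT, 15 in STUS/B6 and 4 in STUS/Hum, or 1.19, 0.894, 0.279, 1.33 and 0.555% of those at the end. In the rest the shares were 1.14, 1.001, 1.09, 1.299 and 1.02%. The Wilson intervals of CAST/SPRT, 0.0765 to 1.01% at the end and 0.888 to 1.34% in the rest, overlapped.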

How the data were processed

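DMC1 single-stranded DNA sequencing (5 libraries) and H3K4me3 ChIP-seq with input (14 samples) were mapped by the authors, with BWA to mm10 per the submitters' processing notes. The authors called hotspots de novo per library and deposited 1 table per genotype. Per the file headers, DMC1 signal is the authors' heat, with no stated scaling, and the deposited fraction of DMC1 reads from B6 comes without read numbers, so its depth is unknown. ChIP coverage, input coverage and SNP-carrying reads were deposited as whole-number counts, beside a ratio of enrichment over input and a fraction of H3K4me3 reads from B6. These were taken as pooled over a genotype's samples. A further 13 columns of values were not used.

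Hotspots below 13 Mb were compared with the rest of the same chromosome. Chromosomes 17 and 19 are outside the set. For each chromosome with at least 5 usable hotspots in both parts, the density, the median log2 value or the share was taken, and the differences were tested by a two-sided exact Wilcoxon signed-rank test with Benjamini-Hochberg adjustment over 39 tests, of which 11 passed at 0.05. Chromosomes of 1 library are not replicate mice: p-values and intervals (Wilson for shares, exact Poisson for densities, 95%) describe these libraries and cover no variation between animals. The lowest DMC1 signal listed was 7.50. Hotspots within 500 bp of each other in 2 tables were taken as shared. Hotspots named are the strongest of each allele, the strongest matched of the B6-side allele, the nearest to a chromosome start and those in all 5 tables, and the promoter sites were chosen after their values were seen. Genes and promoters came from RefSeq (47038 autosomal gene rows). The members, lists and tests were chosen with earlier results of these data known. Computations used scipy 1.17.1, numpy 2.4.6, matplotlib 3.10.9 and pandas 2.3.3 under Python 3.11.15, and were tested on simulated data. Alternatives covered the bound, the chromosomes, the rest, weak hotspots, the limits of matched, weighting and read minimums.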

Additional observations from a re-analysis of the deposited data

How the results depend on the processing

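The differences in H3K4me3 enrichment kept their direction and call under every alternative run, and those in the ratio under all but 1. Over all results and alternatives other than leaving out chromosomes, 241 values kept direction and call, 14 lost the call, 6 gained it and 1 reversed. With a bound of 8 Mb, calls were lost in B6/SPRT for DMC1 signal (0.13), the unassigned share (-4.15 points), the matched share of B6 hotspots (-8.15) and of SPRT hotspots (-8.74), and in Hum/SPRT for the matched share of SPRT hotspots (-7.40). Fewer chromosomes then had enough hotspots for the matched share of B6 hotspots (10). With a bound of 18 Mb, the matched share of B6 hotspots in B6/SPRT (-9.24) lost its call and DMC1 signal in CAST/SPRT (0.17) gained one. Among hotspots at or above the median DMC1 signal, the unassigned share in B6/SPRT reversed (0.585), DMC1 signal in B6/SPRT (0.14) and the matched share of SPRT hotspots in Hum/SPRT (-6.21) lost their calls, and DMC1 signal gained one in Hum/SPRT (0.19) and CAST/SPRT (0.24). Without the last 10 Mb in the rest, the matched share of Hum hotspots in Hum/SPRT (-6.79) passed. With matched set at 40 to 60%, B6 hotspots of B6/SPRT (-5.26) lost the call and Hum hotspots of STUS/Hum (-10.9) gained one. Weighted by signal, the unassigned share (-0.534) and the matched share of SPRT hotspots (-5.93) in B6/SPRT and that of SPRT hotspots in Hum/SPRT (-3.75) lost their calls, and B6 hotspots of STUS/B6 (-8.91) gained one. Leaving out 1 chromosome at a time, DMC1 signal in B6/SPRT ran from 0.22 to 0.29 and its call was lost without any of chromosomes 1, 4, 5, 6, 8, 10, 12, 13, 15 and 18. The matched share of CAST hotspots ran from -9.39 to -5.98 and passed without chromosome 1 or 14. Of the alternatives chosen after seeing the data, the ratio in B6/SPRT lost its call among matched hotspots (0.43, 15 chromosomes), as did the matched share of its B6 hotspots at equal DMC1 signal (-7.38). At equal H3K4me3 enrichment, DMC1 signal stayed higher at the end by 0.46, 0.39 and 0.31 in B6/SPRT, Hum/SPRT and CAST/SPRT. Apart from the smaller numbers named, the cause of these changes was not tested.

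No paired analysis was possible because the H3K4me3 columns are pooled and carry no replicate numbers, and DMC1 has 1 library per genotype. This concerns pairing by replicate, and chromosomes were paired throughout. The unknown read numbers behind the DMC1 fractions limit how firmly a single hotspot can be called matched.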
